A study of Homo sapiens with 2 samples.

Results

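The RNA sites of YBX1, a cold-shock domain protein that binds mRNA, were examined in 49 genes of membrane trafficking and the secretory pathway. The genes were fixed by name, and a site was assigned to a gene when its midpoint lay within the span of the gene in GENCODE release 44 on the strand of the site. Of 2054 listed sites, 34 lay in 16 of these genes, and 33 genes had no listed site. The sites came from PAR-CLIP, in which cells take up a photoreactive uridine (4-thiouridine), the protein is crosslinked to RNA under UV light, and the RNA left after digestion with RNase T1 is sequenced. There was 1 group, HEK293, a human embryonic kidney line, with 2 replicates and no treatment arm. According to the study's methods the cells were T-REx HEK293 Flp-In cells with stable overexpression of YBX1 carrying a FLAG/HA tag, which was pulled down through FLAG, whereas the labels give D2A11, an antibody to YBX1 itself. All values thus describe a kidney line with raised YBX1, and not the medulloblastoma lines of the study. Both replicates were merged by the authors into 1 list of positions without read counts or scores, which leaves unknown how many reads stand behind a site and how far the replicates differed. No expression values go with the list, so the cell label could not be set against marker genes, and a gene without a site is not shown to be unbound. Control samples were not analysed here.

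Proteins of the secretory pathway enter the endoplasmic reticulum (ER) through the SEC61 translocon with its partners SEC62 and SEC63. They leave it in vesicles coated by COPII, whose assembly is started by the GTPase SAR1, and COPI vesicles, recruited by ARF GTPases, carry material back from the Golgi. The p24 proteins of the TMED family are cargo receptors that cycle between both compartments. At the plasma membrane and the trans-Golgi, adaptor complexes select cargo and clathrin forms the outer cage. RAB GTPases give each compartment its identity, and SNARE proteins fuse the membranes. YBX1 is known to package mRNAs and to influence their stability and translation, often from the 3′UTR.

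Sequences are shown for the genes with the most sites, TMED7, VMA21 and TMBIM6 with 5 each and CLTC with 3, and for RAB10, whose coding site holds each tetramer marked here. They were read from GRCh38 on the RNA strand, 5′ to 3′, and T stands for U. Capitals mark CATC, CAAC and CACC, short C/A-rich words searched on the RNA strand alone, of which CATC and CACC can share bases. The sites are numbered along the mRNA.
TMED7 site 1, chr5:115615264-115615283, minus strand: ccatacattttatcctcatg
TMED7 site 2, chr5:115614752-115614769, minus strand: ttaactcttaattctaag
TMED7 site 3, chr5:115614588-115614606, minus strand: ctactccttaatatttatc
TMED7 site 4, chr5:115614373-115614395, minus strand: atacttaCACCataattaaacag
TMED7 site 5, chr5:115613880-115613899, minus strand: ttatactaaaatttCAACtg
VMA21 site 1, chrX:151405420-151405440, plus strand: caaattaaactccactttacg
VMA21 site 2, chrX:151405588-151405611, plus strand: aattatccattacattattttatg
VMA21 site 3, chrX:151405688-151405709, plus strand: atctcactactcaaacactcag
VMA21 site 4, chrX:151405942-151405965, plus strand: aaaacatttttttttCATCcaaaa
VMA21 site 5, chrX:151408741-151408763, plus strand: ataaatattacacataatctatg
TMBIM6 site 1, chr12:49763458-49763482, plus strand: ctggtctggcaaacaCACCtttctg
TMBIM6 site 2, chr12:49763788-49763808, plus strand: taaccaatcctgccagacctg
TMBIM6 site 3, chr12:49763863-49763883, plus strand: caaaatctcctttaaCAACca
TMBIM6 site 4, chr12:49764332-49764351, plus strand: ctctccctattcaCAACcag
TMBIM6 site 5, chr12:49764783-49764807, plus strand: ttatctctaccactttcttttctag
CLTC site 1, chr17:59661502-59661523, plus strand: tcaaacttctcctctacttcag
CLTC site 2, chr17:59682992-59683014, plus strand: aagaacttatCAACtactatcag
CLTC site 3, chr17:59683183-59683205, plus strand: ctattctatactctaaatttaag
RAB10 site 1, chr2:26109789-26109818, plus strand: atttcaCACCATCaCAACctcctactacag
RAB10 site 2, chr2:26135123-26135144, plus strand: tttctCATCttaactatccaag

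These sequences were poor in G and mostly ended in one. TMBIM6 departed from that pattern, with 5 G in site 1 and 3 in site 2. They were the only sites among the 34 with at least 3 G (5.88%, Wilson 95% interval 1.63 to 19.1), against 329 of 2049 sites of up to 100 nt in the whole list (16.1%, 14.5 to 17.7). The share of the list, which also holds sites outside genes, lies within the interval of the 34. Sites 3 of TMED7 and TMBIM6 and site 4 of VMA21 did not end in G.

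At least 1 site was found in 16 of the 49 genes (32.7%, Wilson 95% interval 21.2 to 46.6), against 1366 of 20028 protein-coding genes (6.82%). The interval covers counting error alone, and as the genes were named with earlier results of these data known, the number is a description. There were 8 genes with 1 site, 4 with 2 sites, 1 with 3 and 3 with 5. Thus 8 of the 49 had at least 2 sites, which holds for 1.52% of protein-coding genes, and 3 had at least 5, which holds for 0.14%. TMED7, VMA21 and TMBIM6 together carried 15 of the 34 sites.

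**Figure D1:**
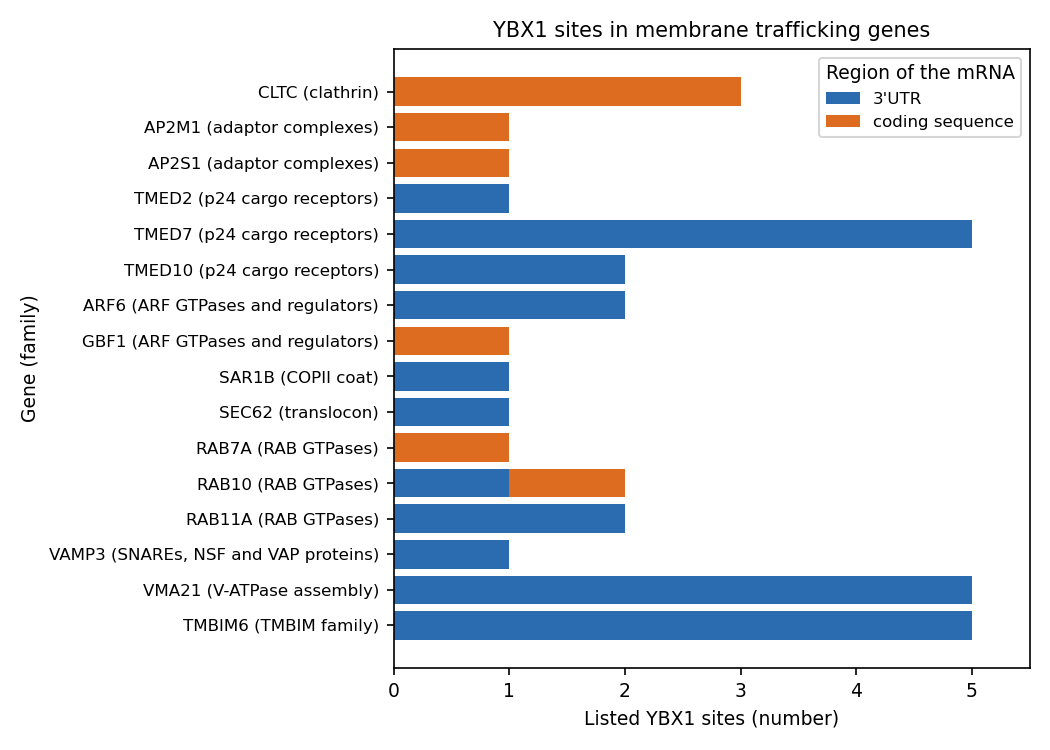
Number of listed YBX1 sites (x axis) in each of the 16 genes with a site (y axis, with its family), split into sites in the 3′UTR (blue) and in the coding sequence (orange) of 1 transcript per gene; the other 33 genes had 0. TMED7, VMA21 and TMBIM6 reach 5 sites, all in the 3′UTR, and CLTC has 3, all in the coding sequence.

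Most sites lay in 3′UTRs. With 1 transcript per gene, the MANE Select one where marked, 26 of the 34 sites were in the 3′UTR (76.5%, Wilson 95% interval 60.0 to 87.6) and 8 in the coding sequence (23.5%, 12.4 to 40). Over all 2054 sites, 955 were in a 3′UTR (46.5%, 44.3 to 48.7) and 634 in coding sequence (30.9%, 28.9 to 32.9). None of the 34 lay in a 5′UTR, an intron or a noncoding exon (0%, upper bound 10.2% for each). The shares of all sites, 1.02, 6.82 and 4.24% in that order, lie under this bound. Sites outside genes are part of the total but cannot occur among sites chosen by gene, so the shares are not on equal terms. The intervals also treat sites as independent, although TMED7, VMA21 and TMBIM6 held 15 of the 26. The difference was not tested. The authors' annotation gave the same 26 sites a 3′UTR class. When every GENCODE transcript was used and 3′UTR came first, 30 sites (88.2%) counted as 3′UTR, because single sites of CLTC, AP2M1, GBF1 and RAB7A lie in the 3′UTR of another transcript of the gene.
The genes divided by region. In 10 genes all sites were in the 3′UTR, in 5 (CLTC, AP2M1, AP2S1, GBF1 and RAB7A) all were in the coding sequence, and RAB10 had 1 site in each.

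CLTC encodes the clathrin heavy chain, the long arm of the clathrin cage. Its 3 sites lay in the coding sequence of 5028 nt, in exons 8, 24 and 25 of 32, and began 1227, 3851 and 3962 nt into it. The latter pair was 168 nt apart in the genome, across an intron, and site 2 reached an edge of exon 24. The 3′UTR of CLTC, 3104 nt long, had no site. PTRH2 runs on the opposite strand at sites 2 and 3. The light chains CLTA and CLTB, whose 3′UTRs measure 285 and 273 nt, had no site.
The AP2 adaptor links clathrin to cargo at the plasma membrane. AP2M1, the subunit that reads tyrosine-based signals in cargo, had 1 coding site in exon 9 of 12 (chromosome 3, 184182009 to 184182029). AP2S1, the small subunit, had 1 coding site in exon 3 of 5 (chromosome 19, 46839553 to 46839572). No site was listed in the large subunits AP2A1 and AP2B1, nor in AP1G1 and AP3B1 of the adaptors of the trans-Golgi and endosomes. The 5 sites in these 9 clathrin and adaptor genes thus all lay in coding sequence, in 3 genes.

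Of the 4 p24 genes among the 49, TMED7, TMED10 and TMED2 had sites, all in 3′UTRs. TMED7 had 5 in a 3′UTR of 2999 nt, which began 926, 1440, 1603, 1814 and 2310 nt after the stop codon. The 3 middle ones fell within a short stretch, with gaps of 145 and 192 nt, while the outer gaps were 494 and 473 nt. The readthrough gene TMED7-TICAM2 spans all 5 on the same strand, and TICAM2-AS1 lies on the other strand.
TMED10, a partner of TMED2 in p24 complexes, had 2 sites, 1109 and 1661 nt into a 3′UTR of 3416 nt. The sequence of the latter occurs at 2 places in the genome, so its reads cannot be tied to TMED10 alone. At the other place no gene is annotated on the strand of the copy. TMED2 had 1 site (chromosome 12, 123597943 to 123597963), 1214 nt into a 3′UTR of 1853 nt. TMED5, with a 3′UTR of 4928 nt, the longest of these 4, had none.

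ARF GTPases recruit coats to membranes when bound to GTP. ARF6, which acts at the plasma membrane and endosomes, had 2 sites 820 and 1842 nt into a 3′UTR of 2790 nt (chromosome 14, 49895084 to 49895102 and 49896106 to 49896135). GBF1, the exchange factor that activates ARF proteins at the early Golgi, had 1 site in exon 36 of 40, in the coding sequence (chromosome 10, 102379859 to 102379876). ARF1 and ARF4, which act at the Golgi, had no site.
Of the 11 genes of both coats 1 had a site (9.09%, Wilson 95% interval 1.62 to 37.7), a share whose interval includes the 6.82% of all protein-coding genes. COPA, COPB1 and COPB2 of COPI had 0. Of 8 COPII genes only SAR1B had a site, 1 in the 3′UTR (chromosome 5, 134605933 to 134605953), 997 nt into 5801 nt. Its close relative SAR1A, with a 3′UTR of 5187 nt, had none, and neither had SEC13, SEC23A, SEC23B, SEC24A, SEC24B and SEC31A. At the translocon, SEC62, which helps proteins enter the ER after translation, had 1 site 2065 nt into a 3′UTR of 5310 nt (chromosome 3, 169995128 to 169995146), and SEC61A1 and SEC63 had 0.

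Of 10 RAB GTPases, 3 had sites. RAB11A, of recycling endosomes, had 2 sites in its 3′UTR of 4149 nt, near both ends: one began 146 nt after the stop codon (chromosome 15, 65887986 to 65888006) and the other ended 263 nt before the end of the mRNA. The sequence of the latter also occurs at a further place in the genome, within HDAC4 on its strand. RAB10, which acts in transport to the cell surface, had 1 coding site 210 nt into the coding sequence, in exon 3 of 6, and 1 site 102 nt into its 3′UTR. RAB7A, of late endosomes, had 1 coding site 435 nt after the start codon (chromosome 3, 128807578 to 128807600). The early endosome genes RAB5A, RAB5B and RAB5C had no site, nor had RAB1A, RAB2A, RAB6A and RAB14.
The sites were also compared with relatives of their genes. The best ungapped match of a coding site within another mRNA of its family covered 65.2 to 80% of its bases (median 71.0%, n = 8), against 60.0 to 78.9% (median 69.2%, n = 26) for sites in 3′UTRs. The closest was that of the RAB10 coding site, with 24 of 30 bases matched in RAB8A, a near relative without a site. No match to mRNAs outside the family is given, and the families searched differed in size. These values therefore do not show a likeness beyond that of unrelated sequence.

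Among fusion proteins, VAMP3, a SNARE of recycling endosomes, had 1 site 796 nt into a 3′UTR of 1787 nt (chromosome 1, 7780441 to 7780460). STX5, SEC22B, the ATPase NSF that recycles SNAREs, the ER anchor protein VAPA and the retromer subunit VPS35 had no site. SEC22B and VAPA have 3′UTRs of 6140 and 5810 nt, the longest of the 49.
VMA21, an ER protein needed to assemble the proton pump (V-ATPase) of acidic organelles, has a coding sequence of 306 nt and a 3′UTR of 4306 nt. Of its 5 sites, 4 were crowded behind the stop codon, at 362, 530, 630 and 884 nt, with gaps of 147, 76 and 232 nt. After 2775 nt without a site came the fifth, at 3683 nt.
TMBIM6 encodes an ER membrane protein linked to calcium and to protection from cell death. Its 5 sites were spread over a 3′UTR of 2038 nt, at 562, 892, 967, 1436 and 1887 nt after the stop codon. Sites 2 and 3 were 54 nt apart, the closest neighbours among all 34 sites, and site 5 ended 127 nt before the end of the mRNA. The 3 genes with 5 sites hence differed in layout: spread out in TMBIM6, central in TMED7 and mostly proximal in VMA21.

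**Figure D2:**
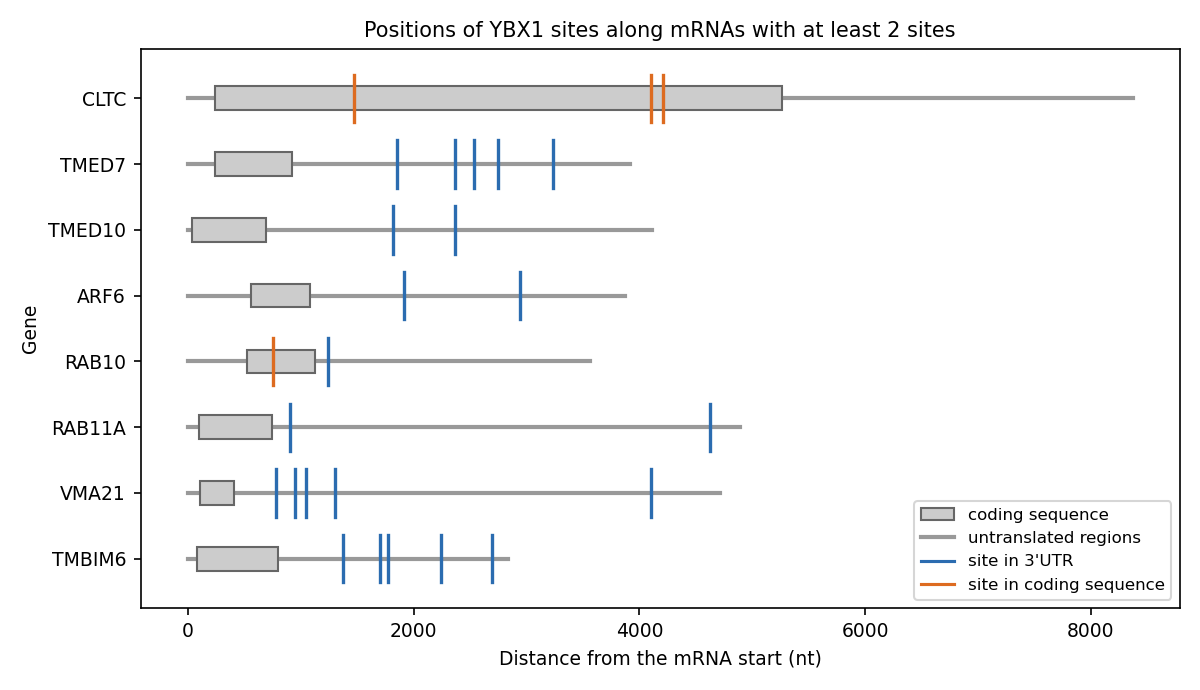
Positions of YBX1 sites (vertical lines, blue in the 3′UTR and orange in the coding sequence) along the spliced mRNAs of the 8 genes with at least 2 sites; grey boxes are coding sequences, grey lines untranslated regions, and the x axis gives the distance from the mRNA start in nt. In VMA21, 4 of 5 sites lie close behind the coding sequence, and in CLTC all 3 lie within it.

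Along the 3′UTR, the 26 sites began at a median of 44.2% of its length (range 3.52 to 93.3%), against 41.8% for 977 placements of sites in the 3′UTRs of all protein-coding genes, where a site in overlapping genes counts for each. There were 11 sites in the first part when 3′UTRs were cut into 3 equal parts, 10 in the middle and 5 in the last. Over all genes the shares were 42.1, 31.4 and 26.4%. Within 500 nt of the stop codon lay 3 sites, and 2 lay within 500 nt of the mRNA end.

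Genes with a site tended to longer 3′UTRs, with ranges that overlapped almost fully. The median 3′UTR was 2611.5 nt in the 16 genes with a site (range 280 to 5801) and 1563 nt in the 33 without (273 to 6140). Over protein-coding genes with a site it was 2046.5 nt, and over all 19533 with a 3′UTR it was 1065 nt. Whole mRNAs of the 16 and the 33 genes had medians of 3896.5 and 3843 nt, and their coding sequences 637.5 and 1068 nt. Of 15 trafficking genes with a 3′UTR under 1000 nt, AP2M1, AP2S1 and GBF1 had a site, each in the coding sequence. Of 5 over 5000 nt, SAR1B and SEC62 had 1 each. A site in the 3′UTR was present in 11 of the 49 genes and in 3.82% of all protein-coding genes with a 3′UTR. These 11 had 3′UTRs of 1787 to 5801 nt, whereas the 38 without ranged from 273 to 6140 nt, and 23 of them were shorter than 1787 nt. The part of 3′UTR length in these counts was not tested.
Per kb of 3′UTR, TMBIM6 had 2.45 sites (exact Poisson 95% interval 0.797 to 5.73), TMED7 1.67 (0.541 to 3.89) and VMA21 1.16 (0.377 to 2.71). The intervals overlap, so the 3 densities cannot be put in order. Among 746 genes with a 3′UTR site, whose median was 0.454 per kb, they ranked 40th, 59th and 117th. By number of sites in the 3′UTR they shared place 4, and 10 genes in all reached 5 or more. The other 8 trafficking genes with a 3′UTR site ranged from 0.172 per kb in SAR1B to 0.717 in ARF6. Taken over the 3′UTRs of all 49 genes, there were 0.229 sites per kb (0.150 to 0.336). Over all protein-coding genes there were 0.0283 (0.0265 to 0.0301), a figure that includes genes HEK293 cells may not express. Because the 49 were named with earlier results of these data known, this contrast is a description and the intervals do not test it. Restricted to genes with a site, the values were 0.609 (0.398 to 0.893) in 16 trafficking genes and 0.272 (0.255 to 0.290) in 1366 protein-coding genes. These genes were kept because they had a site, so the intervals are no basis for comparing both sets. TMBIM6, TMED7 and VMA21 held 15 of the 26 sites behind the value of 0.609. Gene by gene the gap was smaller, with a median of 0.560 per kb in the 11 trafficking genes with a 3′UTR site, against 0.454 in the 746.

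**Figure D3:**
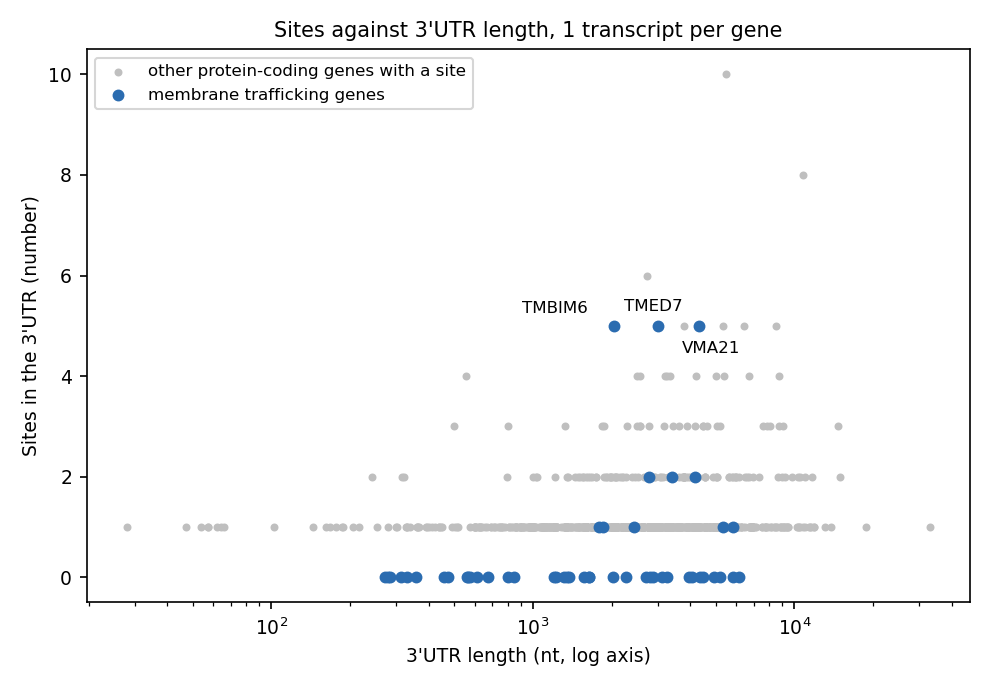
Number of sites in the 3′UTR (y axis) against 3′UTR length in nt (x axis, log scale) for the 49 trafficking genes (blue) and for other protein-coding genes with at least 1 site there (grey), 1 transcript per gene. TMBIM6, TMED7 and VMA21 stand at 5 sites with 3′UTRs of 2038, 2999 and 4306 nt, and no trafficking gene with a 3′UTR under 1787 nt has a site there.

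The sites were short, 18 to 30 nt wide (median 21), and 31 of 34 ended in G while 33 followed a G in the mRNA, the ends that RNase T1 leaves. Inside they held few G, 0 to 5 per site with a median of 1, and 4 to 13 U (median 7.5), the base at which 4-thiouridine crosslinks. On average the bases were 33.0% A, 27.0% C, 5.39% G and 34.6% U, against 32, 28.4, 8.19 and 31.4% over 2049 sites of the list. C and A together ranged from 44% in TMBIM6 site 5 to 76.2% in TMBIM6 site 3, so the extremes came from the same 3′UTR. The median was 62.2% in the 8 coding sites and 59.2% in the 26 sites of 3′UTRs, with overlapping ranges (52.2 to 73.3% and 44 to 76.2%).

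**Figure D4:**
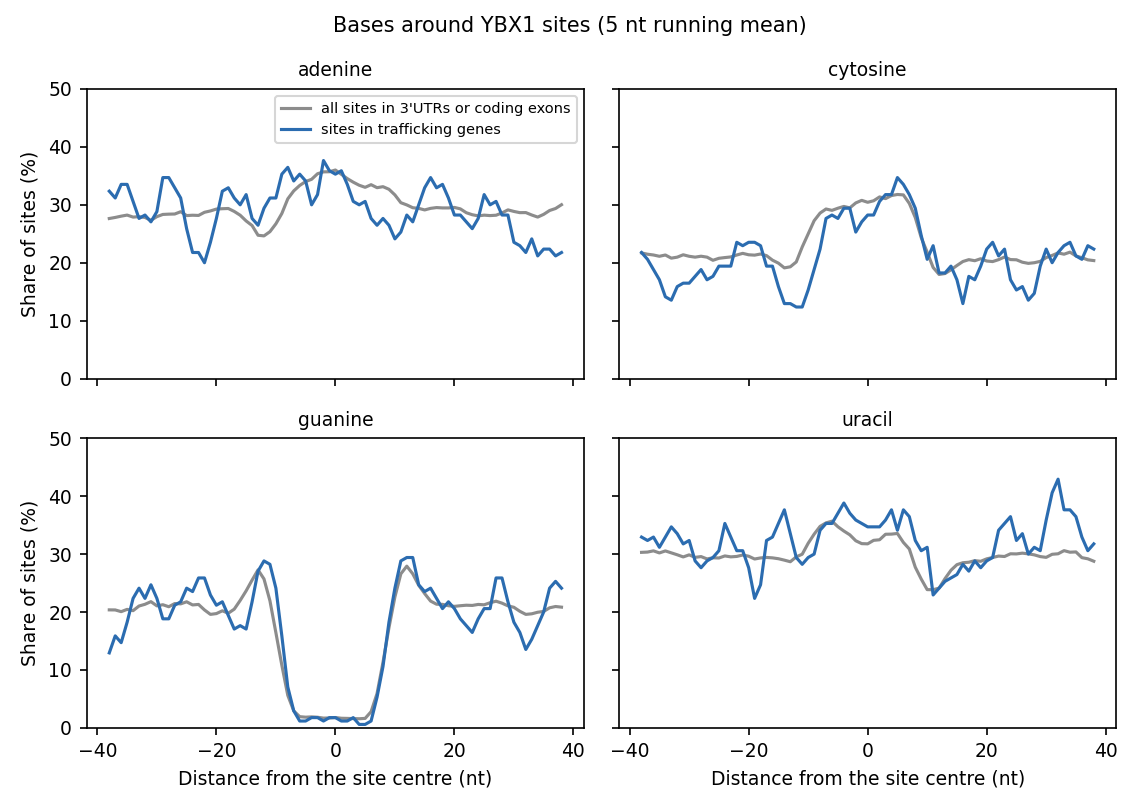
Share of sites (y axis, %) with adenine, cytosine, guanine or uracil at each distance from the site centre (x axis, nt), as a 5 nt running mean, for the 34 sites in trafficking genes (blue) and for all sites in 3′UTRs or coding exons, these 34 included (grey). In both, guanine nearly vanishes inside the sites and cytosine is higher there than just outside.

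For 26 sites, all in 3′UTRs, windows of equal width 100 nt away in the same exon were free of other sites. C and A made up 59.4% of the sites and 47.2% of these windows, a difference of 12.1 percentage points ± 11.2 (SD over sites, n = 26; 95% interval of the mean 7.59 to 16.6), with 20 sites higher, 4 lower and 2 equal. Over 1331 sites of the whole list with such windows, the difference was 12.7 points ± 13.2 (SD). Among A, C and U alone it shrank to 2.57 points (95% interval -2.38 to 7.52), with 16 sites higher and 10 lower and an interval that includes 0. A further set of windows, added once the data had been seen, was cut as RNase T1 would cut: preceded by G, ending in G, with equal numbers of G inside. Against these the excess was 5.20 points (1.18 to 9.21, n = 25), with 18 sites higher and 7 lower. Sites of 1 gene share their mRNA, so these intervals do not rest on independent points.

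**Figure D5:**
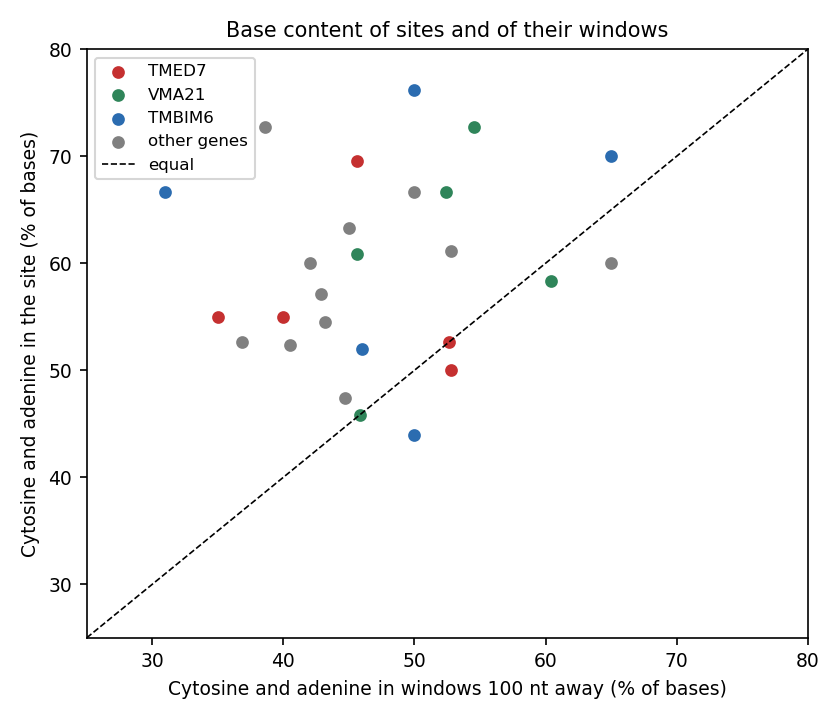
Share of cytosine and adenine in each of 26 sites (y axis, % of bases) against the mean of its windows 100 nt away in the same exon (x axis, %), with the dashed line marking equal shares. In 20 sites the share is above that of the windows, and sites of TMED7, VMA21 and TMBIM6 lie on both sides of the line.

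The short C/A-rich words were no more frequent in the trafficking sites than their intervals allow for the list as a whole. CAAC was present in 7 of 34 sites (20.6%, Wilson 95% interval 10.3 to 36.8) against 26.6% of 2049 sites, CACC in 5 (14.7%, 6.45 to 30.1) against 14.6%, and CATC in 5 (14.7%, 6.45 to 30.1) against 25%. At least 1 of these 3 occurred in 15 sites (44.1%, 28.9 to 60.5), against 52.3% of the list. AACA and AACT were each present in 10 sites (29.4%, 16.8 to 46.2), against 30.9 and 28.2%. Each share of the list fell within the interval of the trafficking sites. CATC and CACC are known for YBX1, and the other words were taken from earlier results of this list.
By gene, CATC occurred in RAB10, RAB11A, VAMP3 and VMA21. CACC occurred in RAB10, TMBIM6, TMED2, TMED7 and TMED10, and CAAC in AP2M1, CLTC, RAB7A, RAB10, TMBIM6 and TMED7. The 30 nt coding site of RAB10 alone held all 3. In the windows 100 nt from the sites, CATC and CACC were each present in 1 of 52 and CAAC in 2. In the windows cut as RNase T1 cuts, the mean share per site was 14.0% for CATC, 11.4% for CACC and 9.54% for CAAC, and these words were present in 12, 16 and 12% of the 25 sites compared. For AACA and AACT the sites were at 28% (Wilson 95% interval 14.3 to 47.6) and 32% (17.2 to 51.6). Such windows were at 13.3 and 15.2%. As both words were taken from earlier results of this list, the contrast is a description and no independent support.

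To set the genes beside their relatives, whole families were taken by name, 213 genes in all with the 49 among them. Sites were listed in 30 of the 213 (14.1%), and in 14 of the 164 relatives that are not among the 49 (8.54%), against the 6.82% of all protein-coding genes. The p24 family had 4 of 10 genes with a site, with TMED9 added through 1 site in its coding sequence, and the TMBIM family 3 of 6, with GRINA and GHITM. Of 61 RAB genes 6 had a site (9.84%), with RAB12, RAB21 and RAB31 added. RAB21, of early endosomes, carried 3 sites in a 3′UTR of 14613 nt, which the authors' annotation placed in the 3′UTR, at a transcript end and between genes. Of 31 adaptor genes 3 had a site, AP3M1 with 1 in its coding sequence and 1 in its 3′UTR. COPI gained COPZ1 with 1 site, ARF GTPases ARF3, the translocon SSR4 and TRAM1, and the SNAREs SNAP29, SEC22A and GOSR1, with 1 each. The sequences of the only sites of RAB31 and GOSR1 also occur at a further place in the genome. With sites found at 1 place alone, 28 of the 213 genes had a site. No site was listed in the 6 COPII, 3 retromer and 4 V-ATPase assembly relatives, nor in CLTCL1, the second clathrin heavy chain.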

How the data were processed

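PAR-CLIP libraries of 2 HEK293 replicates were trimmed by the authors with cutadapt 1.4.1, aligned to GRCh38 with the PARA-suite, and called for binding sites with BMix. The deposited list gives chromosome, start, end, strand and a HOMER annotation for each site of both replicates together. It holds no read count, score or p-value, so depth and replicate error are unknown and no statistical test was run. RNase T1 cuts after G and 4-thiouridine crosslinks at U, so both shape which sequences can be listed. Starts were read as 1-based and the last base as the listed end minus 1, which put G last in 85.4% of plus-strand sites.

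Site midpoints were placed on GENCODE release 44 (GRCh38) on the site's strand. For positions and lengths, 1 transcript per gene was used, MANE Select where marked. Intervals are 95% Wilson intervals for shares and exact Poisson intervals for densities, and cover counting error only. Base content was compared with windows 100 nt to either side within the exon. The placement code was tested on simulated data. Alternatives changed the overlap rule, strand, annotation, site width, merging, uniqueness and windows.

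The 49 genes, the wider families (213 of 215 names matched GENCODE) and the words searched were chosen with earlier results of these data known. Each of the 49 is named, and so is each relative with a site. Sequences are printed for genes with at least 3 sites and for RAB10. Python 3.11.15, pandas 2.3.3, numpy 2.4.6, scipy 1.17.1 and matplotlib 3.10.9 were used.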

Additional observations from a re-analysis of the deposited data

How the results depend on the processing

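Of 32 values recomputed under other settings, 25 met the criterion for a small change (a count within 1.5 times, or a value within the interval of the one given above), among them the counts of genes and sites with any overlap in place of the midpoint, with either strand, with the gene names of the authors' column, with neighbouring sites merged, and with sites found at 1 place in the genome. With only sites wider than the median of the list, 8 trafficking genes had a site, 12 sites lay in them, 14 genes of the wider families had a site, and there were 0.0705 sites per kb of 3′UTR. Only over genes with a site, the density was 0.609 per kb. For the share of sites in 3′UTRs, the reference was the 88.2% over all transcripts (Wilson 95% interval 73.4 to 95.3). The 76.5% with 1 transcript per gene lies within that interval, but its own interval (60.0 to 87.6) does not include 88.2%. The excess of C and A over the windows was 2.57 points among A, C and U, and 5.20 points against windows cut as RNase T1 cuts, an alternative added after seeing the data. The cause was not tested. It was 10.9 points with windows at 300 nt, 13.1 with the first site of each gene, 8.04 (95% interval 4.27 to 11.8) with sites extended by 10 nt, and 9.17 (-0.13 to 18.5, n = 8) with only the wider sites, where the interval includes 0. No paired analysis was possible because both replicates share 1 list, and for the same reason no replicate could be left out. Read depth, which sets how many sites can be called in an mRNA, and mRNA levels are not in the list, so a gene without a site may be weakly expressed, unbound or below detection.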
